A study of Mus musculus with 24 samples.

Results

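Livers of 6 mice that drank 20% fructose for 24 hours were compared with livers of 6 mice that drank tap water. These are 12 of the 24 arrays of the series, chosen by the drink their labels name, and 23966 genes were tested. The mice were wild-type C57Bl/6J males, 8 weeks old, with free access to chow and killed at ZT16, in the dark phase, when mice feed. In the other groups of the study, 6 fed mice drank 20% glucose and 6 mice were fasted, also for 24 hours. Both entered the fit, and glucose livers are used here as a comparison. Each array held the RNA of 1 mouse, so the spread between arrays is a spread between animals. Fructose and water livers are the names used below for both main groups.

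Fructose taken up by the liver is phosphorylated by ketohexokinase and split into 3-carbon sugars that enter glycolysis below its main control step. Much of that carbon becomes lactate, glucose, glycogen or fatty acids. The sugar-responsive factor ChREBP (gene Mlxipl) and the insulin-responsive factor SREBP1c (gene Srebf1) are known to raise glycolytic and lipogenic genes in liver. FGF21 is a hormone made mainly by the liver, and its gene is known to respond to sugar, fasting and amino acid stress. The stress response run by the factor ATF4 raises genes of amino acid import and serine synthesis.

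In fructose livers 117 genes were higher, 0.488% of those tested, and 110 were lower, 0.459%, at a Benjamini-Hochberg adjusted p under 0.05 in limma's fit of group means. At an unadjusted p under 0.05 the counts were 1687 higher and 2196 lower. By at least 2-fold, 24 genes were higher and 10 lower. The median log2 fold change was 0.52 among genes called higher and -0.49 among genes called lower, against -0.021 over all genes tested. The groups did not overlap in 227 genes that lay higher in fructose livers, 0.947% of those tested, and in 223 that lay lower, 0.93%. The split between higher and lower moved with the scaling: 51.5% of the calls were higher here, 57.0% after quantile normalization (127 higher, 96 lower) and 64.2% in the authors' deposited log2 table (239 higher, 133 lower). With another background correction, normexp, 238 genes were higher and 374 lower.

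Single animals moved these counts by more than 1.5 times. Without fructose mouse 1, 3 or 6 the calls fell to 51, 55 and 47 higher and 27, 29 and 34 lower, and without fructose mouse 4 they came to 239 higher and 197 lower. Without water mouse 1, 2, 4 or 6 they were 81, 68, 46 and 52 higher and 65, 42, 20 and 27 lower. In all, 58 of the 227 called genes (39 higher, 19 lower) kept their call with any single one of the 12 arrays left out, and genes of that kind are called steady below. The 3 slides held 2 arrays of each group. Within a slide, 2 arrays against 2, no gene passed in limma, and all 227 called genes had the same sign on every slide, which is a description since they were chosen on these arrays.

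**Figure D1:**
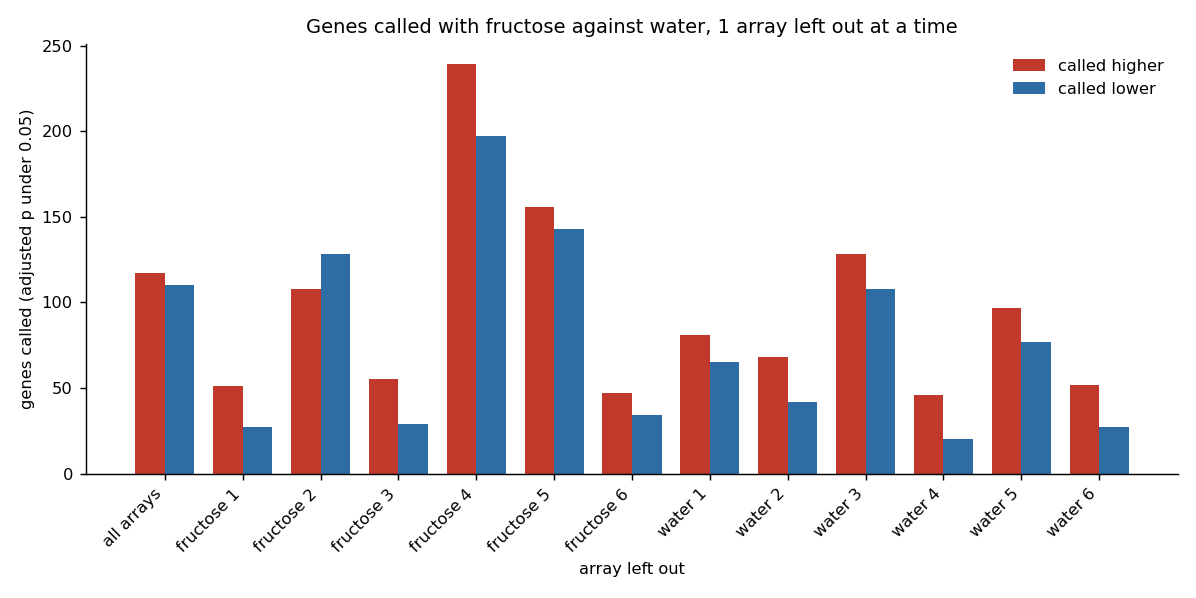
Number of genes higher and lower in fructose livers (adjusted p under 0.05) in the fit of all 24 arrays and with each of the 12 arrays left out in turn. The bars run from 46 to 239 genes higher and from 20 to 197 genes lower.

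**Figure D2:**
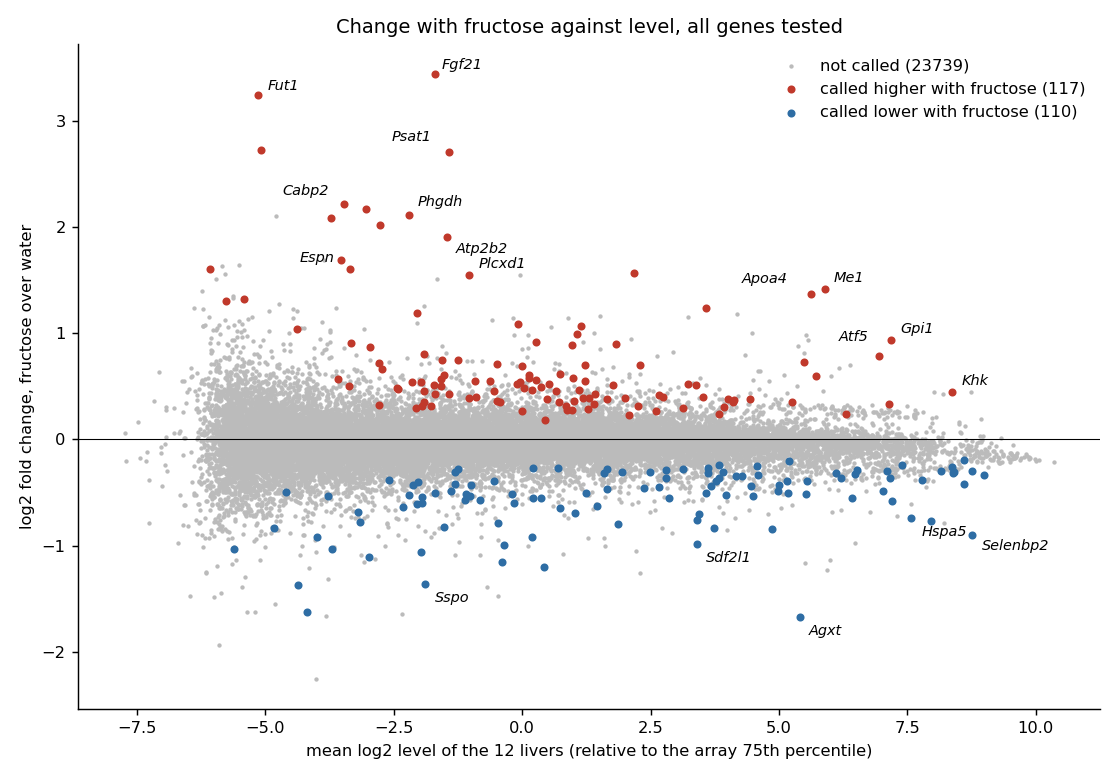
Log2 fold change of fructose over water livers (vertical axis) against the mean log2 level (horizontal axis) for each of 23966 genes. Coloured points mark the 117 genes called higher and the 110 called lower, and grey points the rest.

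Detection was similar in both groups. Fructose arrays had 33067 to 36272 probes well above background and water arrays 32519 to 36106. Correlations across genes were 0.9905 to 0.9938 within fructose arrays, 0.9904 to 0.9941 within water arrays and 0.9878 to 0.9939 between the groups. On the first principal component of the 12 arrays, which held 18.6% of the variance, fructose mouse 1 lay at -42 and farthest from 0. The liver label held: all 9 hepatocyte markers were well above background, albumin among them. Whole arrays leaned brighter in fructose livers, with overlap. The 75th percentiles of the processed intensity were 459.1 to 528.1 in fructose livers and 367.7 to 506 in water livers. The 500 brightest genes had a median log2 fold change of -0.107 with the 75th percentile scaling, -0.027 after quantile normalization and -0.013 in the authors' deposited table, so small falls of very bright genes depend on the scaling.

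Fgf21 had the largest rise among named genes measured above background in both groups, and was steady. Levels are log2 processed intensities relative to the 75th percentile of the array, and a level is not comparable between genes. Fgf21 lay between -1.0 and 1.19 (median -0.18) in fructose livers, against -4.44 to -2.65 (median -3.19) in water livers. The lowest fructose liver was above the highest water liver. The log2 fold change was 3.44 ± 0.50 (SE, n = 6 each; limma adjusted p = 0.00156), a 10.8-fold higher level. On slides 1, 2 and 3 it was 3.78, 3.87 and 2.67. Over the other settings tried it ran from 2.33 to 3.46, lowest with the normexp background correction. The probe lies at chr7:52869305-52869364 on mm9, the build of the array design.

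Fgf21 belongs to the list of ATF4-related genes, some of which are known to carry the composite C/EBP-ATF element TGATGNAA. The element was searched on both strands from 250 bases before to 50 bases after the start of each gene, in RefSeq promoters of GRCm38.p6. It stood in 8 of 22 ATF4-related genes with a promoter in the table (36.4%), against 461 of 13772 tested genes (3.35%). Among the called genes it stood in 7 of 79 that were higher (8.86%) and 2 of 76 that were lower (2.63%). The genes called higher with the element were Cdyl, Fgf21, Nupr1, Pck2, Samd4, Slc17a1 and Slc7a7. Other ATF4-related genes with the element, such as Atf3, Asns, Trib3, Chac1 and Vldlr, were not called. The ATF4-related genes Psat1, Phgdh and Atf5 were called higher and were not among those with the element. A match is a description of the letters and not a bound site. The promoters of Fgf21 (chr7:45615441-45615740, minus strand) and Nupr1 (chr7:126625421-126625720, minus strand) are shown because both genes rose and hold the element. Capitals mark it, read on the reverse strand and beginning at -139 and -110 from the gene start.
Fgf21: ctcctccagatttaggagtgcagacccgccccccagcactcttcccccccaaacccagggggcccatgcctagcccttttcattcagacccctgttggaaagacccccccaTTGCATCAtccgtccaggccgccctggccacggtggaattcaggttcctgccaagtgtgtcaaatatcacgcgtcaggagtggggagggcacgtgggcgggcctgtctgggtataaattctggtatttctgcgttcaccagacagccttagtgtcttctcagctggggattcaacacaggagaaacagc
Nupr1: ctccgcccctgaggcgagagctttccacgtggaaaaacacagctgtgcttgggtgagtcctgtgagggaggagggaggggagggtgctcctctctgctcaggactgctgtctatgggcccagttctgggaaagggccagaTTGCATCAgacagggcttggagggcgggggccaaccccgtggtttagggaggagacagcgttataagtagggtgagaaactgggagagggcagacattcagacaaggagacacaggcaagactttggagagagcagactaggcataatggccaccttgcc

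Of the 3 enzymes that make serine from a glycolytic intermediate, Psat1 and Phgdh rose and Psph did not pass. Psat1, the transaminase of the second step, lay between -1.35 and 0.59 (median 0.19) in fructose livers, against -3.63 to -2.12 (median -2.74) in water livers. Phgdh, the dehydrogenase of the first step, lay between -2.37 and -0.19 (median -0.81) in fructose livers, against -3.55 to -2.67 (median -3.32) in water livers. For both genes every fructose liver was above every water liver, although fructose livers spread widely. The log2 fold change was 2.71 ± 0.31 for Psat1 (limma adjusted p = 6.68e-05, 6.54-fold higher) and 2.11 ± 0.35 for Phgdh (limma adjusted p = 0.00483, 4.33-fold higher). The second Psat1 probe gave 1.91. Psph, the phosphatase of the last step, lay between 0.81 and 1.17 in fructose livers and between 0.36 and 1.11 in water livers, and its log2 fold change of 0.35 did not pass (limma adjusted p = 0.0912).

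Of 23 measured ATF4-related genes, 5 were higher and none lower, with a median log2 fold change of 0.24 and 19 of 23 estimates above 0. Besides Fgf21, Psat1 and Phgdh these were Atf5 and Nupr1. Atf5, a transcription factor related to ATF4, lay between 7.15 and 7.58 (median 7.33) in fructose livers, against 6.42 to 6.65 (median 6.56) in water livers. Its groups did not overlap, and the log2 fold change was 0.79 ± 0.10 (limma adjusted p = 0.00029, 1.73-fold higher). Nupr1, a small stress-induced nuclear protein, lay between -0.16 and 1.06 (median 0.48) in fructose livers, against -0.94 to 0.00 (median -0.69) in water livers. The edges of the Nupr1 ranges overlapped, and the log2 fold change was 1.08 ± 0.21 (limma adjusted p = 0.0154), while its second probe gave 0.02. Nupr1 was not called when only the 12 arrays of both groups were fitted, where its spread is not shared with the other arrays.

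Other well-known members of the ATF4 response did not pass. Asns, asparagine synthetase, lay between 0.24 and 2.82 (median 0.76) in fructose livers, against -1.33 to 1.02 (median 0.14) in water livers, with a log2 fold change of 1.06 and a limma adjusted p of 0.214. Atf4 itself had a log2 fold change of -0.02, the pro-apoptotic factor Ddit3 -0.48 and the pseudokinase Trib3 0.08. The mitochondrial folate enzyme Mthfd2 had 0.77 (limma adjusted p = 0.0773). For the related Aldh1l2, well above background in 5 of 6 fructose livers and 1 of 6 water livers, the fitted value of 1.21 did not pass (limma adjusted p = 0.0704) and rests on unmeasured water levels. Its second probe gave 1.56 ± 0.23 and passed (limma adjusted p = 0.00197), and the gene was called with probes averaged and in the authors' deposited table. Slc7a7, a carrier that moves cationic amino acids across the basolateral membrane, and Pck2, the mitochondrial PEP carboxykinase, are not in that list, and Slc7a7 was chosen after its values were seen. Slc7a7 lay between 1.29 and 1.69 in fructose livers, against 0.79 to 1.12 in water livers, a log2 fold change of 0.55 ± 0.09 (limma adjusted p = 0.00423). Pck2 rose by 0.54 ± 0.11 (limma adjusted p = 0.0219), lost the call without fructose mouse 1, 3 or 6 or water mouse 4 (limma adjusted p up to 0.0667), and its other probe gave 0.14.

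**Figure D3:**
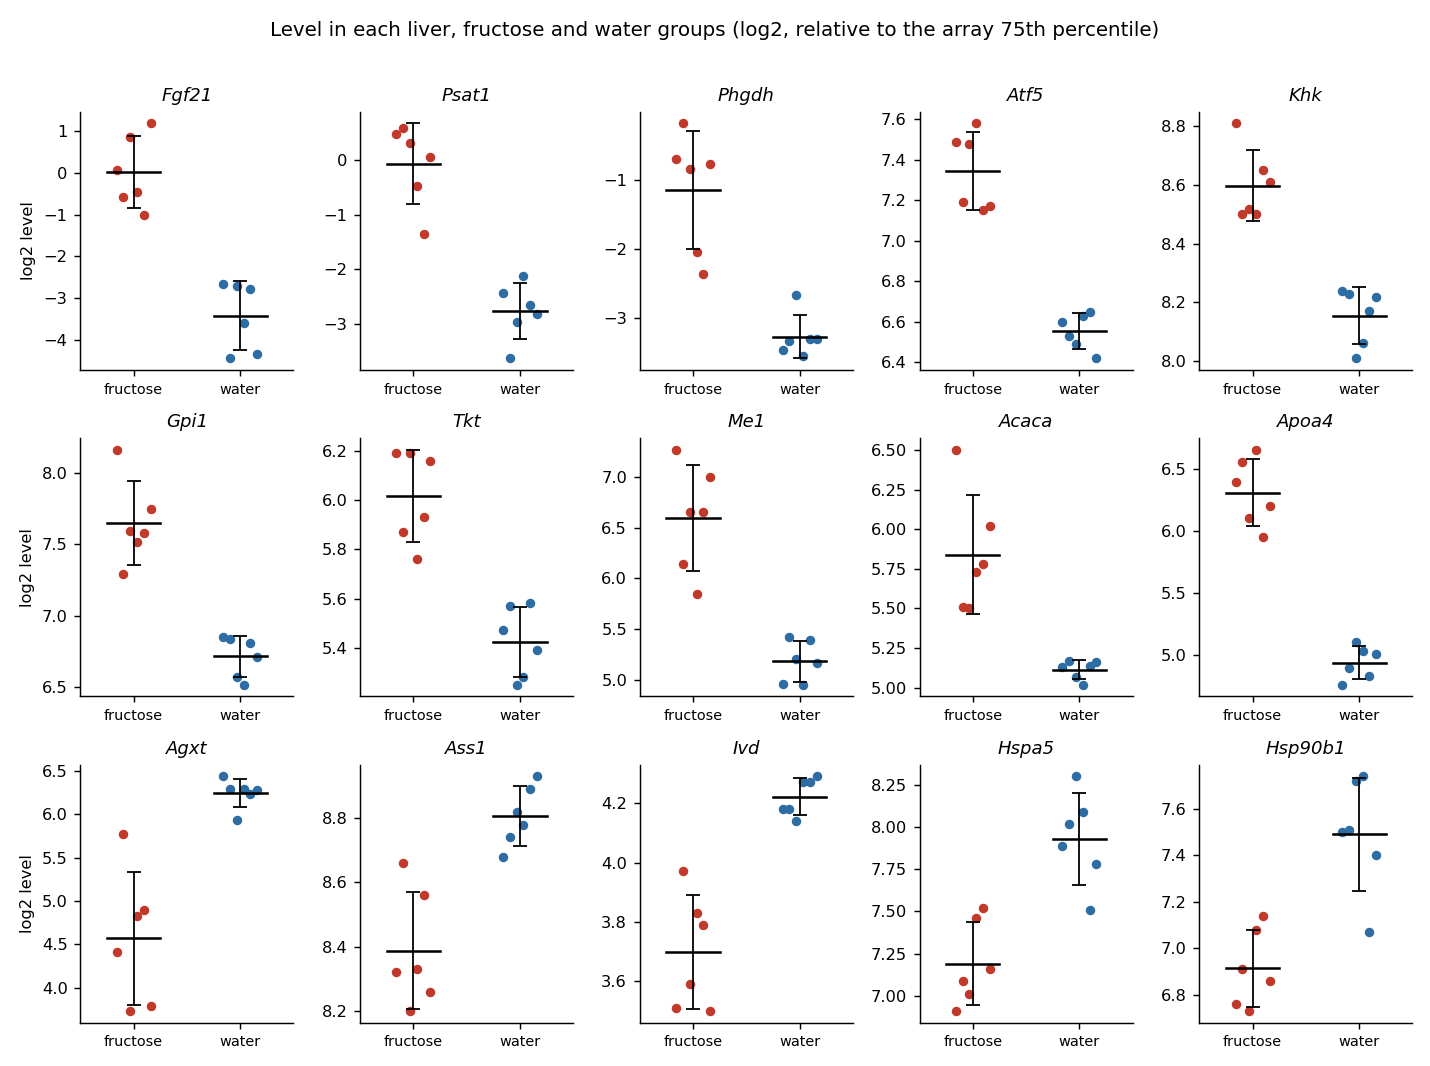
Log2 levels relative to the array's 75th percentile for 15 genes, with 6 fructose livers left of 6 water livers in each panel. Points are livers, bars are means and whiskers are SD; Fgf21, Psat1, Me1 and Gpi1 lie higher in every fructose liver than in any water liver, and Agxt lies lower.

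Of 10 genes for fructose uptake, polyols and fructose breakdown, 1 was higher and none lower, and the median log2 fold change was 0.01. The gene that rose was Khk, ketohexokinase, which phosphorylates fructose on entry. Khk lay between 8.50 and 8.81 (median 8.56) in fructose livers, against 8.01 to 8.24 (median 8.2) in water livers. No fructose liver reached down to the water range. The log2 fold change was 0.44 ± 0.07 (limma adjusted p = 0.00483, 1.36-fold higher), and the gene was steady. Tkfc, triokinase, which acts further down the same route, had 0.46 (limma adjusted p = 0.0907) and the fructose transporter Slc2a5 0.48 (limma adjusted p = 0.209).

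Among 17 glycolytic genes 2 were higher and none lower, with a median log2 fold change of 0.13. Gpi1, glucose-6-phosphate isomerase, interconverts glucose and fructose 6-phosphates. Gpi1 lay between 7.29 and 8.16 (median 7.58) in fructose livers, against 6.52 to 6.85 (median 6.76) in water livers. Fructose livers were all above water livers, and all 4 probes of the gene gave log2 fold changes of 0.92 to 1.19. The log2 fold change of the brightest probe was 0.93 ± 0.11 (limma adjusted p = 0.000105, 1.91-fold higher), and Gpi1 was steady. Eno1, enolase, had 0.34 ± 0.08 (limma adjusted p = 0.0404) and kept its call in 2 of 12 fits with 1 array left out, namely without fructose mouse 4 or 5. Its highest limma adjusted p with an array left out was 0.109. The list's median level, taken per array as the deviation from the mean of the 12 arrays, was 0.03 to 0.13 in fructose livers and -0.10 to -0.02 in water livers. That is a small shift without overlap, and most of the genes did not pass singly.

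None of 12 genes in a list of ChREBP targets was called. The list also holds the gene of ChREBP itself, Mlxipl, and Mlx (log2 fold change -0.125), and it does not hold every known target. Of the 12 estimates 9 were above 0, and their median log2 fold change was 0.27. In the authors' deposited log2 table, and after normexp correction, 2 of the 12 genes were called higher. Pklr, liver pyruvate kinase and the last enzyme of glycolysis, lay between 1.73 and 2.62 (median 2.06) in fructose livers, against 1.04 to 1.66 (median 1.52) in water livers. Its groups did not overlap, yet the log2 fold change of 0.68 ± 0.18 did not pass (limma adjusted p = 0.0691). Pnpla3, a lipid droplet lipase, varied from -1.41 to 2.16 in fructose livers and from -2.41 to -0.04 in water livers (log2 fold change 1.55 ± 0.54, limma adjusted p = 0.149). Txnip, an inhibitor of thioredoxin and of glucose uptake, had 0.40 and Thrsp, a lipogenic protein, -0.02. The gene of ChREBP, Mlxipl, had -0.07.

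A carbohydrate response element was searched on both strands as CANGNG, 5 bases of any kind and CNCNTG. It stood in 103 of 13772 tested promoters (0.748%) and in 1 of 9 genes of the ChREBP list with a promoter (11.1%), Pklr. The plain E-box CACGTG, which it can overlap, stood in 10.4% of tested promoters. It stood in 11.4% of those of genes called higher and in 7.89% of those called lower. In the ChREBP list the E-box stood in 3 of 9 promoters (33.3%), those of Mlxipl, Mlx and Arrdc4, which were not called. The Pklr promoter (chr3:89136373-89136672, plus strand, GRCm38.p6, 1 of 2 in the table) is shown as the one match in the list, with the element in capitals, and was chosen after its values were seen. The element begins at -170.
Pklr: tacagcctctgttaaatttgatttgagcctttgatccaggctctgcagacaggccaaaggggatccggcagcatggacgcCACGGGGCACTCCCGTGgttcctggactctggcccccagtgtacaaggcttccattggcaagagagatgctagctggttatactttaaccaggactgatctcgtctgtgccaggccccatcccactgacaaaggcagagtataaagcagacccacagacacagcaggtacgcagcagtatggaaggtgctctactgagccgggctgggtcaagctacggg

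Of 11 genes that supply NADPH or run the pentose phosphate pathway, 3 were called higher and none lower (median log2 fold change 0.10). Me1, malic enzyme, makes NADPH for fatty acid synthesis from malate. Me1 lay between 5.85 and 7.27 (median 6.66) in fructose livers, against 4.95 to 5.42 (median 5.18) in water livers. The groups did not overlap, and fructose livers spread more (SD 0.53 in fructose and 0.20 in water livers). The log2 fold change was 1.42 ± 0.20 (limma adjusted p = 0.000855, 2.67-fold higher), and it was 0.95, 1.30 and 2.01 on slides 1, 2 and 3. Tkt, transketolase, lay between 5.76 and 6.19 (median 6.05) in fructose livers, against 5.25 to 5.58 (median 5.43) in water livers, a log2 fold change of 0.59 ± 0.09 (limma adjusted p = 0.00423). Pgd, the second NADPH-forming dehydrogenase of the pathway, lay between 2.19 and 3.17 (median 2.58) in fructose livers, against 1.75 to 2.10 (median 1.93) in water livers, a log2 fold change of 0.70 ± 0.13 (limma adjusted p = 0.0139). Each of the 3 genes was above its water range in every fructose liver and was steady. The second probe of Tkt gave 0.03 and that of Pgd -0.17, and with probes averaged both lost their call, as Pgd did in the fit of the 12 arrays alone. G6pdx, the first dehydrogenase, had 0.71 and did not pass (limma adjusted p = 0.122).

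Genes of fatty acid synthesis leaned up as a list: 14 of 18 estimates were above 0 with a median log2 fold change of 0.40, and 3 were called higher and none lower. The 3 were Me1, Acaca and Slc25a1. Acaca, acetyl-CoA carboxylase, forms malonyl-CoA, the committed step. Acaca lay between 5.50 and 6.50 (median 5.76) in fructose livers, against 5.02 to 5.17 (median 5.13) in water livers. There was no overlap, the log2 fold change was 0.73 ± 0.14 (limma adjusted p = 0.0139, 1.66-fold higher), and its 6 probes gave 0.53 to 0.99. Slc25a1, the carrier that brings citrate out of mitochondria, lay between 4.03 and 4.48 (median 4.40) in fructose livers, against 3.79 to 4.02 (median 3.99) in water livers, a log2 fold change of 0.37 ± 0.07 (limma adjusted p = 0.0198). The Slc25a1 call was lost without fructose mouse 1 or 6 (limma adjusted p up to 0.0545). In the fit of the 12 arrays alone, Acaca and Slc25a1 were not called and Me1 was, and Acaca also lost its call with probes averaged.

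The best-known enzymes of the same list did not pass. Acly, ATP citrate lyase, lay between 6.08 and 7.50 (median 6.80) in fructose livers, against 5.64 to 6.35 (median 6.06) in water livers (log2 fold change 0.70 ± 0.18, limma adjusted p = 0.0634). Fasn, fatty acid synthase, had a log2 fold change of 0.45 (limma adjusted p = 0.241), the elongase Elovl6 0.88 (limma adjusted p = 0.0959) and the desaturase Scd1 0.43 (limma adjusted p = 0.388). For these genes the ranges of both groups overlapped. Srebf1, the gene of SREBP1, had -0.07. No gene of the 22 for triglycerides and lipid droplets, the 16 for fatty acid oxidation or the 6 for ketone bodies was called, and their medians were 0.13, -0.08 and -0.12. In the gluconeogenic list Pck1 had 0.01 and G6pc 0.28, and neither passed. Stbd1, a glycogen-binding protein, was called higher by 0.38 (limma adjusted p = 0.0499) and lost the call whichever of the 12 arrays was left out.

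Apolipoproteins moved in opposite directions. Apoa4, which is carried on chylomicrons and high-density lipoproteins, lay between 5.95 and 6.65 (median 6.29) in fructose livers, against 4.76 to 5.10 (median 4.95) in water livers. There was no overlap, and the log2 fold change was 1.37 ± 0.22 (limma adjusted p = 0.00423, 2.58-fold higher), with 1.38, 1.45 and 1.27 on slides 1, 2 and 3. Apoa1, the main protein of high-density lipoprotein, lay between 7.32 and 7.85 (median 7.65) in fructose livers, against 7.89 to 8.03 (median 8.0) in water livers. It fell by 0.38 on the log2 scale (SE 0.08, limma adjusted p = 0.0238), and lost the call without fructose mouse 1 or 3 or water mouse 4 or 6 (limma adjusted p up to 0.0667). These were the called genes among 19 of lipoproteins and their lipases (median log2 fold change -0.04, and 0.023 after quantile normalization). Of 24 cholesterol genes 1 was lower, the sterol isomerase Ebp. Of 13 bile acid genes 1 was lower, Slc27a5, which activates bile acids for conjugation. Neither Ebp (-0.24) nor Slc27a5 (-0.26) was called after quantile normalization or in the authors' deposited table, and with 1 array left out they were called in 4 and 3 of 12 fits.

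**Figure D4:**
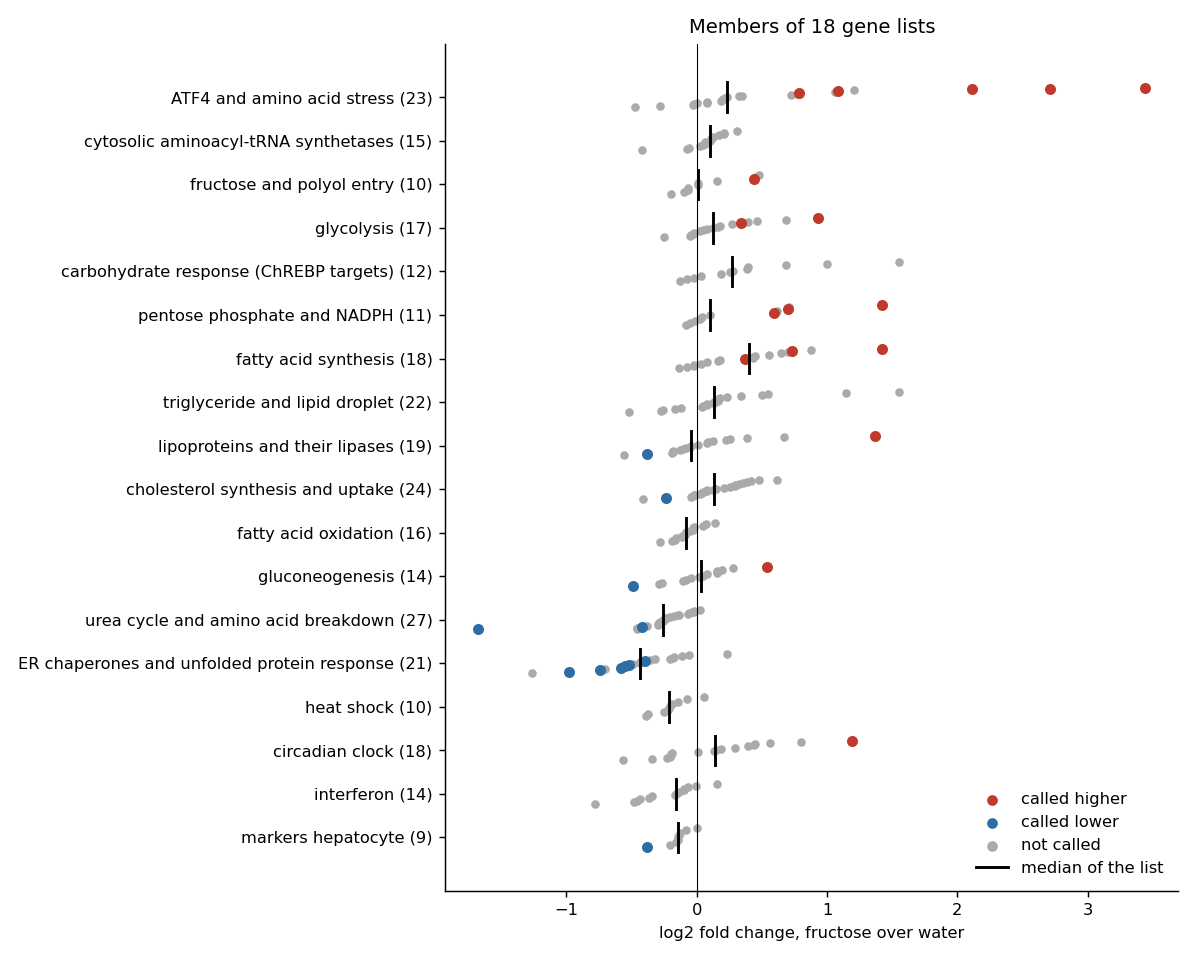
Log2 fold changes of fructose over water livers for the measured members of 18 gene lists. Dots are genes and the black tick is the median of the list, which is 0.40 for fatty acid synthesis, 0.24 for ATF4-related genes and -0.43 for ER chaperones.

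Agxt had the largest fall of any named gene. It encodes alanine-glyoxylate aminotransferase, the liver enzyme that turns glyoxylate into glycine and so keeps it from becoming oxalate. Agxt lay between 3.73 and 5.77 (median 4.62) in fructose livers, against 5.94 to 6.44 (median 6.28) in water livers. Every fructose liver was below every water liver, and fructose livers were far more spread (SD 0.77 in fructose and 0.16 in water livers). The log2 fold change was -1.67 ± 0.24 (limma adjusted p = 0.00116, 3.19-fold lower), and it was -1.83, -1.48 and -1.71 on slides 1, 2 and 3. Agxt was steady and kept its call in each of the 11 other settings tried, between -1.73 and -1.65. The probe lies at chr1:95041901-95041959 on mm9.

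Genes of the urea cycle and of amino acid breakdown leaned down with it: 26 of 27 estimates were below 0 with a median log2 fold change of -0.25. Only Agxt and Ass1 passed the test among the 27, and none was higher. The median was -0.246 after quantile normalization and -0.216 in the authors' deposited table. Ass1, argininosuccinate synthase of the urea cycle, lay between 8.2 and 8.66 (median 8.33) in fructose livers, against 8.68 to 8.93 (median 8.80) in water livers. Ass1 had no overlap and fell by 0.42 on the log2 scale (SE 0.07, limma adjusted p = 0.00767), and it was not called in the fit of the 12 arrays alone. Cps1, the first urea cycle enzyme, had a log2 fold change of -0.23 (limma adjusted p = 0.225). Sds and Hal, which break down serine and histidine, had -0.46 each (limma adjusted p = 0.12 and 0.125).

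Further enzymes of amino acid breakdown outside that list were called lower, and apart from Gpt they were chosen after their values were seen. Ivd, isovaleryl-CoA dehydrogenase of leucine breakdown, lay between 3.50 and 3.97 (median 3.69) in fructose livers, against 4.14 to 4.29 (median 4.23) in water livers. Its fall of 0.52 (log2, SE 0.09, limma adjusted p = 0.00691) had no overlap and was steady. Gpt, alanine aminotransferase, lay between 6.50 and 7.08 (median 6.77) in fructose livers, against 7.13 to 7.31 (median 7.29) in water livers, a log2 fold change of -0.48 ± 0.10 (limma adjusted p = 0.0262). Agxt2, Gcdh, Aldh4a1 and Sardh, which act on glyoxylate, lysine, proline and sarcosine, had log2 fold changes of -0.49, -0.43, -0.33 and -0.32. These 4 and Gpt each kept the call in 2 to 6 of the 12 fits with an array left out. All of them lost it without fructose mouse 1, 3 or 6 or water mouse 2, 4 or 6, with limma adjusted p up to 0.106. The amino acid carrier Slc38a4 lay between 6.25 and 6.48 in fructose livers and between 6.58 and 6.79 in water livers, and its fall of 0.29 (log2, SE 0.06, limma adjusted p = 0.0158) was steady but was not called in the fit of the 12 arrays alone. Slc43a1, a carrier of large neutral amino acids, had -1.0 ± 0.22 (limma adjusted p = 0.0305), a second probe at -0.09, and no call without fructose mouse 1, 3 or 6 or water mouse 1, 2, 4 or 6 (limma adjusted p up to 0.0797).

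Genes for chaperones of the endoplasmic reticulum (ER) had mostly negative estimates, and fewer passed. Of 21 genes for protein folding in the ER and the unfolded protein response, 6 were called lower and none higher, 20 of 21 estimates were below 0 and the median log2 fold change was -0.43. Hspa5, the chaperone BiP, lay between 6.91 and 7.52 (median 7.13) in fructose livers, against 7.51 to 8.30 (median 7.95) in water livers. The ranges overlapped only where the highest fructose liver met the lowest water liver, the log2 fold change was -0.74 ± 0.14 (limma adjusted p = 0.0139, 1.67-fold lower), and its 3 probes gave -0.75 to -0.74. Hsp90b1, the ER member of the HSP90 family, lay between 6.73 and 7.14 (median 6.89) in fructose livers, against 7.07 to 7.74 (median 7.50) in water livers (log2 fold change -0.58 ± 0.12, limma adjusted p = 0.0198). Sdf2l1, a partner of BiP, lay between 2.24 and 3.57 in fructose livers and between 3.10 and 4.46 in water livers (-0.98 ± 0.23, limma adjusted p = 0.0419). Pdia4, a disulfide isomerase, had -0.55 (limma adjusted p = 0.0404). Sel1l and Edem1, which send misfolded proteins for degradation, had -0.52 and -0.39. The other probes of Sel1l gave -0.35 and -0.07, and that of Edem1 -0.08. Both genes lost their call with probes averaged. Edem1 also lost it after quantile normalization and in the authors' deposited table. Xbp1, a factor known to raise genes of this list, had -0.18 and did not pass (limma adjusted p = 0.488).

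The number of ER genes called moved when single animals were left out. Hspa5 was steady with 1 array left out and was not called in the fit of the 12 arrays alone, where none of the 21 genes was. The count of 6 lower genes became 1, 3, 1 and 2 without fructose mouse 1, 2, 3 or 6, and 3, 2, 2, 1 and 2 without water mouse 1, 2, 3, 4 or 6. Without fructose mouse 5 it became 10. The median fall was stable across scalings, at -0.432 after quantile normalization and -0.412 in the authors' deposited table. The list's median level per array was -0.44 to 0.04 in fructose livers and -0.13 to 0.47 in water livers, with overlap. None of 10 heat shock genes was called (median log2 fold change -0.21). Of these, 2 lay lower in every fructose liver than in any water liver, against 0.93% of all genes tested. They were Hspd1 and Hspe1, chaperones of the mitochondria.

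Several of the largest rises by the naming rule had no place in the lists. Fut1, a fucosyltransferase whose gene neighbours Fgf21 on chromosome 7 (probe at chr7:52876318-52876377, mm9), was well above background on all 6 fructose arrays and on none of the water arrays. It lay between -4.67 and -2.90 (median -3.29) in fructose livers, against -7.57 to -5.77 (median -6.79) in water livers. The water values are not measured levels, so the rise is given as at least 5.40-fold, with limma adjusted p = 6.68e-05 for the fitted values. That bound raises each water array to the dimmest probe that passed on it. Cabp2, a calcium-binding protein, lay between -3.59 and -0.68 (median -2.52) in fructose livers, against -5.09 to -4.14 (median -4.54) in water livers, where 5 of 6 arrays were above background (2.21 ± 0.36, limma adjusted p = 0.00423). Atp2b2, a plasma membrane calcium pump, had a log2 fold change of 1.91 ± 0.38 (limma adjusted p = 0.0198) and lost the call without fructose mouse 6 (limma adjusted p = 0.0533) and in the fit of the 12 arrays alone. Plcxd1, a phospholipase-like protein, lay between -0.94 and 0.36 (median -0.14) in fructose livers, against -2.32 to -1.10 (median -1.89) in water livers (1.55 ± 0.22, limma adjusted p = 0.00116).

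Among the other rises, Cd9, a membrane tetraspanin, lay between 1.82 and 2.70 (median 2.29) in fructose livers, against 1.16 to 1.66 (median 1.37) in water livers (0.90 ± 0.17, limma adjusted p = 0.0139). Klf11, a zinc finger repressor, lay between -2.83 and -2.04 in fructose livers and between -3.60 and -3.25 in water livers (0.88 ± 0.16, limma adjusted p = 0.0125). Neither gene overlapped between groups, and both were steady. Of 18 measured clock genes 1 was higher, the repressor Nr1d1, at -2.07 to -0.97 (median -1.37) in fructose livers, against -3.12 to -2.02 (median -2.81) in water livers. The Nr1d1 ranges touched at their edges, and the log2 fold change was 1.19 ± 0.23 (limma adjusted p = 0.0144, 2.28-fold higher). Its call was lost in the fit of the 12 arrays alone. The clock output gene Dbp had 0.80 (limma adjusted p = 0.0756). All mice were killed at the same ZT16, so one time of day was sampled.

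The largest falls after Agxt included a sugar enzyme and interferon-linked genes. Dcxr, dicarbonyl and L-xylulose reductase, lay between 2.62 and 3.58 (median 3.01) in fructose livers, against 3.67 to 3.88 (median 3.80) in water livers. Its log2 fold change was -0.76 ± 0.12 (limma adjusted p = 0.00423), it was steady, and its 4 probes ran from -0.76 to -0.20. Pxmp2, a peroxisomal membrane channel, lay between 5.83 and 6.44 (median 6.12) in fructose livers, against 6.56 to 6.76 (median 6.71) in water livers (-0.55 ± 0.09, limma adjusted p = 0.00483). Ifi47, an interferon-induced GTPase, lay between 1.16 and 1.72 (median 1.48) in fructose livers, against 2.02 to 2.63 (median 2.15) in water livers (-0.80 ± 0.15, limma adjusted p = 0.0139). Nlrc5, the activator of MHC class I genes, had -0.55 (limma adjusted p = 0.0257) with a second probe at 0.19, and lost the call without fructose mouse 3 or 6 or water mouse 4 or 6 (limma adjusted p up to 0.0712). In the list of 14 interferon genes none was called, 13 of 14 estimates were below 0 and the median was -0.16. Sspo, a secreted matrix protein of the brain, had -1.36 ± 0.25 (limma adjusted p = 0.0137), and the DNA methyltransferase Dnmt3b had -0.79 ± 0.15 (limma adjusted p = 0.0139). Both were steady, with no overlap, and Dnmt3b was not called in the fit of the 12 arrays alone.

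Other named falls were not steady, though their estimates kept their sign with any array left out. Aox3, an aldehyde oxidase, lay between 2.80 and 3.78 in fructose livers and between 3.79 and 4.54 in water livers (-0.83, limma adjusted p = 0.0402), and was called in 4 of the 12 fits with an array left out. Selenbp1, a selenium-binding protein, lay between 7.24 and 8.01 in fructose livers and between 8.02 and 8.68 in water livers (-0.77, limma adjusted p = 0.022), and was called in 7. The near-identical Selenbp2 had -0.90 (limma adjusted p = 0.0404) and was called in 3, and the probes of both genes may share transcripts. Saa4, a constitutive serum amyloid A, had -0.84 (limma adjusted p = 0.0403) and was called in 5. Each of these genes lost its call without fructose mouse 1, 3 or 6 or water mouse 4 or 6. In the 12 fits the log2 fold change ran from -0.92 to -0.72 for Aox3 and from -0.85 to -0.70 for Selenbp1. It ran from -1.02 to -0.80 for Selenbp2 and from -0.94 to -0.70 for Saa4. No member of the 15-gene acute phase list was called, although all 15 estimates were below 0 (median -0.13). Nr3c1, the glucocorticoid receptor, had -0.24 (limma adjusted p = 0.0398) and of the 12 fits was called only in that without fructose mouse 4.

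Hepatocyte markers lay slightly lower on this scale, and 1 of 9, Apoa1, was called. Alb, albumin, lay between 9.82 and 9.98 (median 9.93) in fructose livers, against 10.01 to 10.30 (median 10.11) in water livers, a log2 fold change of -0.21 that did not pass (limma adjusted p = 0.0648). Hnf4a, the central hepatocyte transcription factor, had 0.01. The log2 of the summed level of 9 hepatocyte markers was 12.14 to 12.28 in fructose livers and 12.29 to 12.54 in water livers. After quantile normalization the sum was 10.41 to 10.46 in fructose livers and 10.42 to 10.46 in water livers. That scaling gives every array the same distribution of values, so a sum of the brightest genes can hardly differ after it. Whether the gap came from the scaling was not tested. In bulk liver, fewer cells of a type and less RNA per cell cannot be told apart.

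Periportal hepatocyte markers, among them Ass1, moved with the urea cycle and amino acid genes: 8 of 10 estimates were below 0, 1 was called lower and the median log2 fold change was -0.23, and -0.227 after quantile normalization. Their summed level was 10.11 to 10.37 in fructose livers and 10.28 to 10.59 in water livers, with overlap, and their part in the amino acid results was not tested. Pericentral hepatocyte markers also had 8 of 10 estimates below 0, with a median of -0.15, and -0.101 after quantile normalization. Their summed level was 9.55 to 9.80 in fructose livers and 9.83 to 10.07 in water livers. Summed lymphocyte markers were 4.38 to 5.00 in fructose livers and 5.02 to 5.30 in water livers. After quantile normalization both sums overlapped. Pericentral markers then summed to 7.76 to 7.98 in fructose livers and 7.97 to 8.02 in water livers. Lymphocyte markers summed to 2.49 to 3.14 in fructose livers and 3.13 to 3.40 in water livers. All 9 measured lymphocyte markers had estimates below 0 (median -0.14) and none was called. The sums of Kupffer cell, neutrophil, endothelial, stellate, bile duct, fat, pancreatic, red cell, muscle and gut markers overlapped between groups. Kupffer markers, for one, summed to 5.71 to 6.26 in fructose livers and 5.97 to 6.48 in water livers. The part of such shifts in the gene results was not tested.

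The other lists had few or no called genes. None of 10 NRF2 targets was called, although all 10 estimates were above 0 (median 0.29). None of 14 cell cycle genes was called (median 0.29), nor any of 15 citric acid cycle genes (-0.06), 15 aminoacyl-tRNA synthetases (0.10), 15 xenobiotic genes (-0.14) or 10 inflammation genes (-0.13). Of 18 PPARA targets and of 18 hepatokines 1 each was higher, Fgf21 in both, with medians of 0.04 and 0.17. None of 15 insulin and growth hormone genes was called (median -0.05).

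Fructose and glucose livers were compared directly, since both comparisons with water share the same water livers. No gene differed at an adjusted p under 0.05 in limma, 0% in either direction. At an unadjusted p under 0.05, 814 genes were higher and 1067 lower in fructose livers, and the groups did not overlap in 71 (0.296%) and 75 (0.313%). Normexp correction gave 1 gene higher and 3 lower, array weights 1 and 5, the mean over probes 1 and 1, and a trended robust prior 1 and 1. Leaving out glucose mouse 3 gave 1 and 2, and leaving out fructose mouse 2 gave 0 and 1. Over all genes the 95% interval of the difference had a median half-width of 0.24 on the log2 scale. That interval is for single genes and is not adjusted, so it is not the limit of the adjusted test. Differences well above it also failed to pass, such as those of Phgdh, Psat1, Nupr1 and Apoa4 below.

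The lowest adjusted p was that of Csrp2, a LIM-domain protein, chosen for that value. Csrp2 lay between 3.75 and 4.00 (median 3.80) in fructose livers, against 3.32 to 3.58 (median 3.44) in glucose livers, a difference of 0.41 (95% interval 0.27 to 0.55, limma adjusted p = 0.0761). Its ranges did not overlap. Apoa4 lay between 5.95 and 6.65 in fructose livers, 5.09 and 6.12 in glucose livers and 4.76 and 5.10 in water livers. The difference of fructose from glucose was 0.66 (95% interval 0.20 to 1.12, limma adjusted p = 0.474).

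The serine and stress genes lay lower with fructose than with glucose, without passing. Phgdh lay between -2.37 and -0.19 (median -0.81) in fructose livers, against -0.87 to 1.56 (median -0.08) in glucose livers, a difference of -1.25 (95% interval -1.98 to -0.52, limma adjusted p = 0.445). Psat1 differed by -0.92 (-1.56 to -0.28, limma adjusted p = 0.474), Nupr1 by -0.77 (-1.20 to -0.33, limma adjusted p = 0.437) and Atf5 by -0.37 (-0.58 to -0.16, limma adjusted p = 0.437). The single intervals leave out 0, but none of the 4 genes passed after adjustment over 23966 genes. Fgf21 lay between -1.0 and 1.19 (median -0.18) in fructose livers, against -0.15 to 1.99 (median 0.86) in glucose livers. Its difference of -0.97 had an interval of -2.01 to 0.07.

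The direct differences of the sugar and lipogenic genes varied in size, and none passed. Khk differed by -0.04 (95% interval -0.19 to 0.12), Gpi1 by 0.10 (-0.13 to 0.33) and Me1 by 0.12 (-0.29 to 0.52). Those intervals bound the difference and do not show that the sugars act alike. Pnpla3 lay between -1.41 and 2.16 (median 1.02) in fructose livers, against 0.27 to 2.55 (median 1.84) in glucose livers, a difference of -0.97 (-2.09 to 0.15). Gpam, which starts triglyceride synthesis, differed by -0.53 (-0.84 to -0.21, limma adjusted p = 0.445) and Acly by -0.38 (-0.75 to -0.01, limma adjusted p = 0.633). Pklr differed by -0.30 (-0.67 to 0.07) and Fasn by -0.27 (-0.66 to 0.13). Agxt lay between 3.73 and 5.77 (median 4.62) in fructose livers, against 4.66 to 5.52 (median 4.96) in glucose livers. Its difference was -0.44 (-0.94 to 0.05). The 27-gene list that holds Agxt and Ass1 leaned the other way, with a median difference of 0.17 and no gene called. Hspa5 differed by -0.31 (-0.60 to -0.02, limma adjusted p = 0.603).

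**Figure D5:**
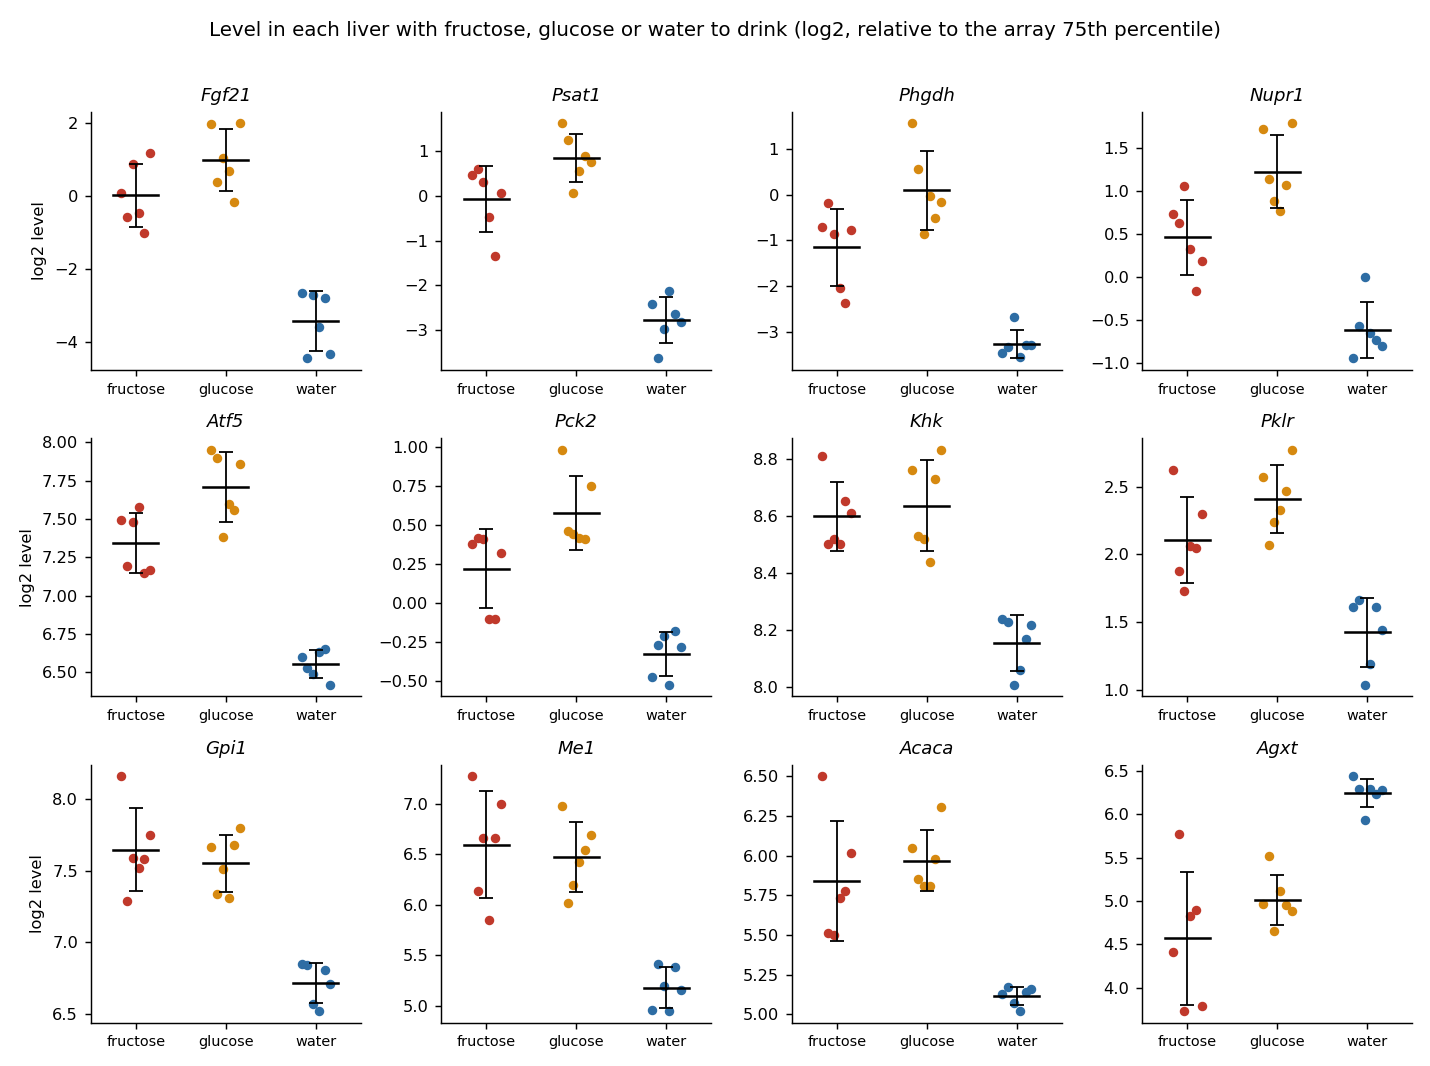
Log2 levels relative to the array's 75th percentile of 12 genes in 6 fructose, 6 glucose and 6 water livers, with points for livers, bars for means and whiskers for SD. Fructose and glucose livers overlap for Fgf21, Me1 and Agxt, and no gene passed between both sugars after adjustment.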

How the data were processed

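Liver RNA of 24 mice was hybridised as Cy3 cRNA to 1-colour Agilent arrays. Per the file headers, Agilent Feature Extraction 10.10.1.1 made the deposited intensity values, which were corrected for background within the array and not normalized between arrays. The authors' series table, also deposited, holds log2 values; each column correlated at 0.99985 or more with its array's log2 median intensity and had a median of 7.38 to 7.39, but its normalization is not given in the sources used here. Direction and scale follow from this match; any centring does not.

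Control and outlier spots were left out, the log2 processed intensity was taken relative to the array's 75th percentile, and a probe was kept if well above background on at least 6 arrays (36229 of 56605 probes). A gene is its brightest kept probe; 7946 of 23966 genes had several. Names came from RefSeq GRCm38.p6 (15655 by accession, 1736 by symbol, 103 by synonym) or the array (6472). All 24 arrays entered 1 fit of group means with limma 3.58.1 in R 4.3.3, with Benjamini-Hochberg adjustment over all genes of a comparison; 46 missing values were left missing. The steps were tested on simulated data. Precision is limited by the number of arrays, since no counts exist.

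Named genes are the 15 largest rises and 15 largest falls without overlap, up to 4 members of each of 46 lists, and a panel of 23 genes. Not all are printed. Members and lists were chosen with earlier results of these data known. Some genes are not reported here.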

Additional observations from a re-analysis of the deposited data

Results flagged for a closer look

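In 192 sets of 6 livers, 7 had 1 liver apart from the rest, by Dixon's ratio of its gap to the nearest liver over the whole range. Chance flags about 1 in 20 sets. Aldh1l2 lay at -5.51 in fructose mouse 5 (the next at -4.27) and Ddit3 at 0.15 in the same liver (the next at -0.58). Txnip lay at 4.36 in fructose mouse 6 (the next at 3.63) and at 3.80 in water mouse 1 (the next at 3.28). In water mouse 3, Phgdh lay at -2.67 (the next at -3.30), Gcdh at 4.97 (the next at 5.24) and Hal at 4.19 (the next at 4.86). Phgdh kept its call with any one array left out, and Gcdh was called without water mouse 3.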

How the results depend on the processing

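Against water, the counts of genes higher and lower were 117 and 110, and were within 1.5 times of these with slide as a block (116 and 124), after quantile normalization (127 and 96), with probes required above background on all 24 arrays (144 and 147) and with the mean over probes (103 and 91). They were 55 and 21 in the fit of the 12 arrays alone, 0 and 0 within each slide, 238 and 374 with normexp, 239 and 133 in the deposited table, 55 and 26 with no filter on dim probes, 238 and 252 with array weights, 24 and 10 with a 2-fold minimum, and 185 and 198 with a trended robust prior. With 1 array left out they ran from 46 to 239 higher and from 20 to 197 lower. Against glucose the counts of 0 and 0 became 1 and 3 with normexp, 1 and 1 with the mean over probes, 1 and 5 with array weights and 1 and 1 with the trended prior, and ran from 0 to 1 and 0 to 2 with 1 array left out. No called gene named in the text reversed. Estimates near 0 that were not called crossed it, such as Atf4 (-0.02 to 0.05) and Mlxipl (-0.09 to 0.01) over settings other than left-out arrays. So did the median of the lipoprotein list (-0.044, and 0.023 with quantile normalization and 0.022 in the deposited table), and in the deposited table those of the bile acid list (-0.068 to 0.002) and red cell markers (-0.051 to 0.025). The cause of the changed counts was not tested. Same-numbered fructose and water mice deviated together at correlations of -0.021 to 0.219, and only fructose mouse 1 matched its own number best. For fructose and glucose mice the correlations were -0.134 to 0.177, and fructose mice 1, 2 and 3 matched their own numbers best. The main fit did not pair mice by number. Replicate number as a replicate block gave 97 higher and 80 lower against water, and 0 and 0 against glucose. Signal over background limits dim genes such as Fut1.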
